A study of Saccharomyces cerevisiae with 8 samples.

Results

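Transcripts of 10 potassium genes of budding yeast, Saccharomyces cerevisiae, were followed in cells that carried a plasmid for the mammalian potassium channel Kir2.1 and in cells with a vector alone. The genes were taken by name: the uptake transporters TRK1 and TRK2, the channel TOK1, the internal transporters KHA1 and VHC1, the kinases HAL5 and SAT4, the phosphatases PPZ1 and PPZ2, and the phosphatase inhibitor SIS2. All 10 of 10 were read, each from 1 probe set that belongs to it alone, among 5449 S. cerevisiae genes on the array. There were 8 arrays of whole-culture RNA, 4 in each group, from cells grown at 26 °C to mid log phase in selective medium.

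Every control culture held the vector pRSGPD426, and every Kir2.1 culture held pRS416TEF-Kir2.1-HA, which by its name puts an HA-tagged channel under the TEF promoter. By the usual naming of these vectors the control plasmid is a high-copy one with a GPD promoter. The Kir2.1 plasmid is by the same naming a low-copy centromeric one. The groups therefore differ in plasmid and promoter as well as in the channel. The labels mark the 4 control arrays, and none of the Kir2.1 arrays, as re-analysed, and an effect of whatever this mark stands for and an effect of the channel cannot be told apart. Strain background and mating type are not given in the labels. Of the mating markers, all 4 alpha-cell genes lay above background on all 8 arrays, while the a-cell genes STE2, MFA2, BAR1 and AGA2 did so on 0, STE6 on 2 and MFA1 on 8. Kir2.1 itself was not analysed here, and the level of channel reached in the cells was not measured.

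Yeast takes up potassium through the Trk proteins, drawn in by the membrane voltage that the proton pump Pma1 sets up. Tok1 is a channel that lets potassium out when the membrane is depolarized, Kha1 is a potassium-proton exchanger of internal membranes, and Vhc1 carries potassium with chloride at the vacuole. The kinases Hal5 and Sat4 (also called Hal4) keep Trk1 at the cell surface, the phosphatases Ppz1 and Ppz2 restrain Trk-mediated uptake, and Sis2 (also called Hal3) inhibits Ppz1. Channels of the Kir2.1 type are known to let yeast without its own Trk transporters grow on little potassium, which is why these genes bear on the comparison.

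The authors' scores, which are standardized within each array, were turned back into a log2 scale on which 0 is the array's own median gene. A difference is Kir2.1 minus vector control on that scale. Since probe sets differ in brightness, the level of 1 gene was not set against that of another. Probe sets for the fission yeast S. pombe, which the array also carries, served as background, and each of the 10 genes exceeded their 95th percentile on all 8 arrays. The margin over that background was smallest for VHC1, at 0.44 to 1.02 log2 units, TRK2, at 0.53 to 0.98, and PPZ2, at 0.65 to 1.16. In RNA of a whole culture, fewer cells with a transcript and less of it per cell cannot be told apart.

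The arrays were not alike within groups. Kir2.1 replicates 1 and 3 and control replicate 1 had an iron regulon mean over 14 genes of 2.27, 2.40 and 1.97, against -0.80 to -0.13 on the other arrays. Kir2.1 replicate 4 lay apart on the second principal component of all genes, at -16.7 against -2.63 to 4.93 on the other 7. The median gene before centring was lower in the Kir2.1 arrays (-0.13), and between 84.9% and 88.6% of genes lay above background. The spread was wider in the Kir2.1 group for 84.0% of all genes and for 10 of the 10 potassium genes, whose median SD was 0.094 in the control and 0.19 in the Kir2.1 arrays. The highest of the 8 values lay on a Kir2.1 array for 10 of the 10, and for 77.1% of all genes. The lowest lay on a Kir2.1 array for 6 of the 10, and for 59.5% of all genes.

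No potassium gene passed the test between the groups. With limma and Benjamini-Hochberg adjustment over all genes, 0 of 10 passed, as did 0 of 5449 genes (0%), and the smallest adjusted p among the 10 was 0.683, for PPZ2. At an unadjusted p under 0.05, 0 of 10 were higher, where 6.37% of all genes were, and 0 of 10 were lower, where 1.98% were. These background shares depend on the scaling, since the counts behind them were 347 higher and 108 lower here but 119 and 145 after quantile normalization. In no potassium gene did the groups separate, against 5.05% of all genes with every Kir2.1 value above every control value and 1.54% with every one below. The mean was higher in the Kir2.1 arrays for 7 of the 10 genes and lower for 3, against 3200 higher and 2249 lower of all 5449. The median difference was 0.091, against 0.029 over all genes. After quantile normalization these medians were 0.090 and -0.0034. The counts were then again 7 and 3, against 2662 higher and 2787 lower of all genes.

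The intervals give the precision of these differences on the rebuilt log2 scale. For 9 of the 10 genes the 95% interval of the difference lay within 1.5-fold in either direction. KHA1 was the exception, with an interval from 0.813-fold to 1.71-fold. For VHC1, TRK2 and PPZ2, which lay nearest to background, the interval may understate the range of change in the transcript.

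**Figure D1:**
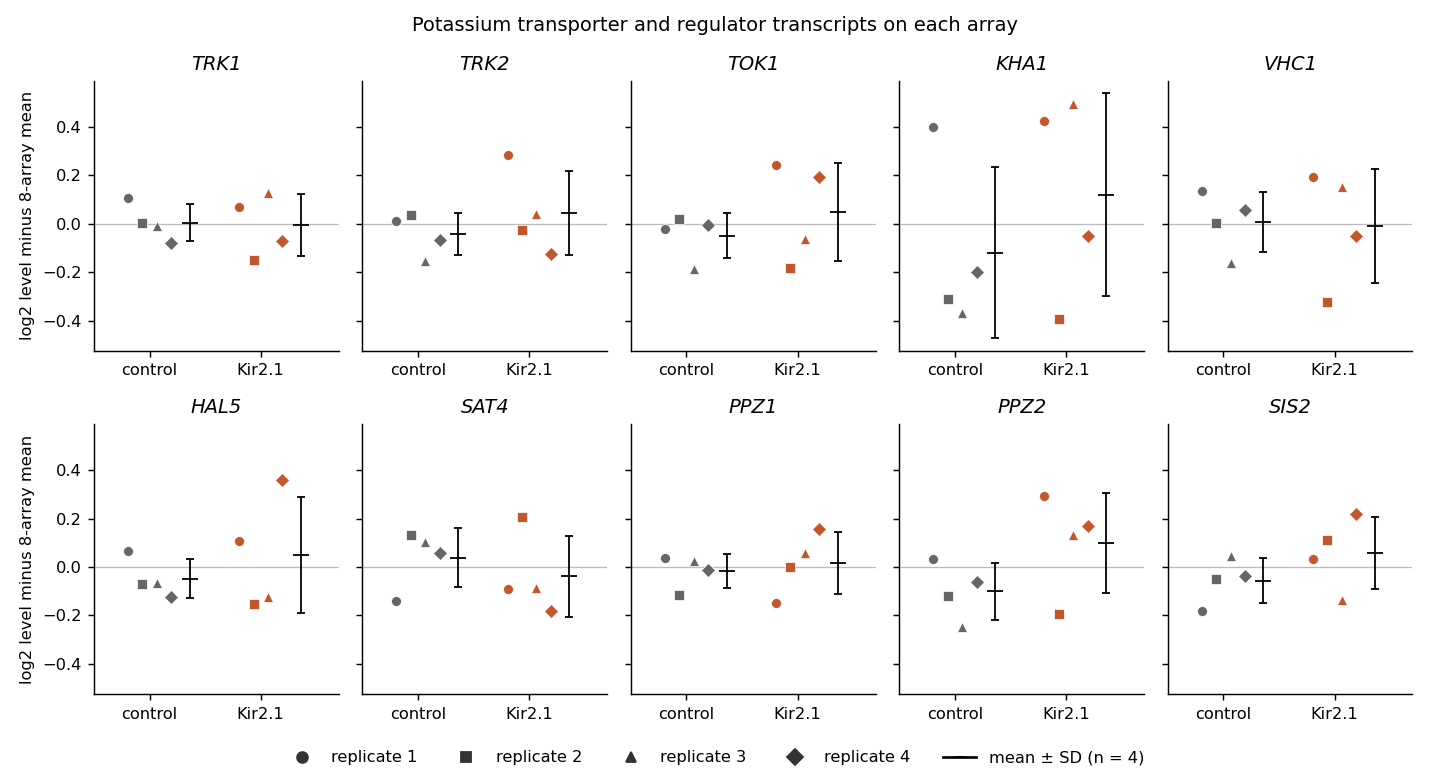
Each panel plots the log2 level of 1 gene minus its mean over the 8 arrays, with 1 point for each array, and the bar beside each group is the mean with its SD (n = 4). Control and Kir2.1 points overlap in all 10 panels, and KHA1 covers the widest range, 0.89 log2 units.

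TRK1 (YJL129C) encodes the main high-affinity potassium transporter of the plasma membrane, and its transcript was among the steadier ones. In replicates 1 to 4 the control arrays read 0.42, 0.32, 0.31 and 0.24, and the Kir2.1 arrays read 0.39, 0.17, 0.45 and 0.24. The Kir2.1 values held both the lowest and the highest of the 8, and the control values lay between them. The means were 0.32 ± 0.077 (SD, n = 4) in the control and 0.31 ± 0.13 (SD, n = 4) in the Kir2.1 arrays. The difference was -0.010 (SE 0.078, limma adjusted p = 0.967), or 0.993-fold with a 95% interval from 0.878 to 1.12. The whole span of TRK1 over the 8 arrays was 1.21-fold, and its spread within groups was below that of most genes, at percentile 34.7.

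For TRK2 (YKR050W), which encodes the second transporter of this family, the control arrays read -1.05, -1.02, -1.21 and -1.12 and the Kir2.1 arrays -0.77, -1.08, -1.02 and -1.18. Kir2.1 replicate 1 stood above the rest, Kir2.1 replicate 3 was level with the highest control, and the other 2 lay among the controls. The difference was 0.086 (SE 0.093, adjusted p = 0.777). It was 0.0057 without Kir2.1 replicate 1, and -0.015 without the 3 arrays of high iron regulon.

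TOK1 (YJL093C), the gene of the outward potassium channel, read 0.39, 0.43, 0.23 and 0.41 in the control arrays and 0.66, 0.23, 0.35 and 0.61 in the Kir2.1 arrays. Kir2.1 replicates 1 and 4 were above every control, and Kir2.1 replicates 2 and 3 lay within the control range. The difference was 0.097 (SE 0.11, adjusted p = 0.776), a 1.07-fold mean with an interval from 0.906 to 1.26. It was 0.032 without Kir2.1 replicate 1, 0.049 without replicate 4, 0.051 without control replicate 3, and 0.063 without the 3 arrays of high iron regulon.

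KHA1 (YJL094C), which lies next to TOK1 on chromosome X and encodes the potassium-proton exchanger, varied most among the 10 genes. Control replicates 1 to 4 read 0.74, 0.025, -0.033 and 0.14, and Kir2.1 replicates 1 to 4 read 0.76, -0.057, 0.83 and 0.29. The 3 highest values, close to each other, came from Kir2.1 replicates 3 and 1 and vector control replicate 1, and the other 5 lay at least 0.449 log2 units below them. The span was 1.85-fold, and the spread within groups exceeded that of most genes, at percentile 94.2. The group means were 0.22 ± 0.35 (SD, n = 4) and 0.46 ± 0.42 (SD, n = 4), with a difference of 0.24 (SE 0.24, adjusted p = 0.758).

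The 3 arrays with high KHA1 are the 3 with a high iron regulon mean. Because they fall 1 in the control and 2 in the Kir2.1 group, they enter the group difference unequally, and without them it was 0.071 (adjusted p = 0.836). The part of these cultures' state in the KHA1 level was not tested. The neighbour TOK1 did not follow the same order: its highest arrays were Kir2.1 replicates 1 and 4, and vector control replicate 1 stood at 0.39, amid the other controls.

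VHC1 (YBR235W), for the vacuolar cotransporter, read -0.83, -0.96, -1.12 and -0.91 in the control arrays and -0.77, -1.29, -0.81 and -1.01 in the Kir2.1 arrays. As with TRK1, Kir2.1 replicates spanned the controls on both sides, with Kir2.1 replicate 2 the lowest of all. The difference was -0.016 (SE 0.12, adjusted p = 0.968).

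**Figure D2:**
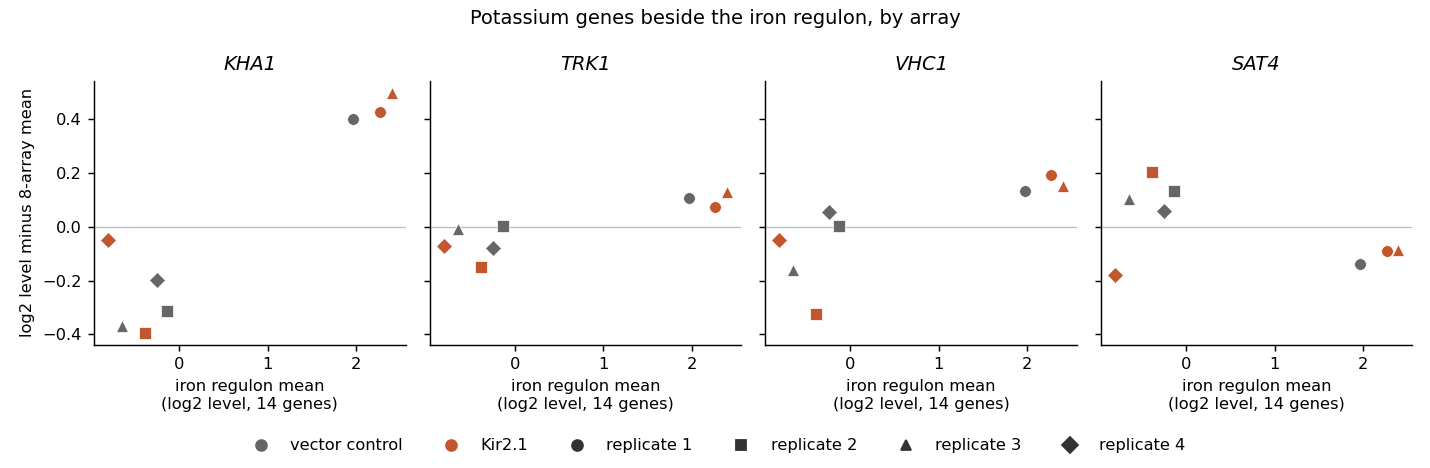
The log2 level of KHA1, TRK1, VHC1 and SAT4, minus the mean over 8 arrays, is plotted against the iron regulon mean of the same array, with colour for the group and marker shape for the replicate. The 3 arrays at 1.97 to 2.40 on the horizontal axis hold the 3 highest values of KHA1, TRK1 and VHC1, while SAT4 is lower there than on 4 of the other 5 arrays.

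For 3 of the 10 genes, KHA1, TRK1 and VHC1, the 3 highest arrays were these same ones, an order shared by 16.7% of all genes. For 0 of the 10 they were the 3 lowest, where 18.4% of all genes had that order. The gap was narrow outside KHA1: TRK1 read 0.39 to 0.45 on the 3 arrays and 0.17 to 0.32 on the other 5, and VHC1 read -0.83 to -0.77 and -1.29 to -0.91.

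Both kinase genes overlapped between the groups. HAL5 (YJL165C), whose product stabilizes Trk1 at the surface, read 0.46, 0.33, 0.34 and 0.28 in the control arrays and 0.51, 0.25, 0.28 and 0.76 in the Kir2.1 arrays. Kir2.1 replicate 4 stood above the other 7, which lay between 0.25 and 0.51. That array was also the highest of the 8 for PPZ1 and SIS2. The difference was 0.096 (SE 0.12, adjusted p = 0.790), and without that array it was -0.0080.

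SAT4 (YCR008W), the gene of the related kinase, read 0.50, 0.77, 0.74 and 0.69 in the control arrays and 0.54, 0.84, 0.55 and 0.45 in the Kir2.1 arrays. Kir2.1 replicate 2 was the highest and Kir2.1 replicate 4 the lowest, the reverse of HAL5, for which replicate 2 was the lowest and replicate 4 the highest. The difference was -0.077 (SE 0.098, adjusted p = 0.801), or 0.948-fold with an interval from 0.811 to 1.11. It had the same sign in all 21 alternatives on the log2 scale, from -0.22 to -0.030, and passed in 0 of them.

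PPZ1 (YML016C), the gene of the main phosphatase of the pair, was the steadiest within groups, at percentile 32.6 of all genes. Its control values were 0.77, 0.62, 0.76 and 0.72 and its Kir2.1 values 0.59, 0.74, 0.79 and 0.89. Kir2.1 values again lay on both sides of the controls, from the lowest to the highest of the 8. The difference was 0.033 (SE 0.076, adjusted p = 0.885) and 0.0041 after quantile normalization. It was -0.014 without Kir2.1 replicate 4, 0.088 without Kir2.1 replicate 1, and 0.00046 without control replicate 2.

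PPZ2 (YDR436W), which encodes the closely related phosphatase, came nearest to a separation. Control replicates 1 to 4 read -0.86, -1.01, -1.14 and -0.95, and Kir2.1 replicates 1 to 4 read -0.60, -1.08, -0.76 and -0.72. Of the Kir2.1 values, 3 lay above all 4 controls and replicate 2 lay among them. The means were -0.99 ± 0.12 (SD, n = 4) and -0.79 ± 0.21 (SD, n = 4), and the difference of 0.20 (SE 0.11, unadjusted p = 0.105, adjusted p = 0.683) did not pass. As a ratio it was 1.15-fold with an interval from 0.965 to 1.37.

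PPZ2 passed in 2 of the 21 alternatives on the log2 scale. With Kir2.1 replicate 2 and vector control replicate 1 both left out, a choice made from earlier results on these arrays, PPZ2 differed by 0.34 (adjusted p = 0.0432), the 1 potassium gene of 10 to pass where 9.32% of all genes did. With limma's array weights, 2 of 10 passed, where 31.8% of all genes did: PPZ2 at 0.32 (adjusted p = 0.0227) and KHA1 at 0.59 (adjusted p = 0.0205). These weights were lowest for Kir2.1 replicates 2 (0.231) and 4 (0.267) and vector control replicate 1 (0.372). Vector control replicate 1 is the control array of high iron regulon, while Kir2.1 replicates 1 and 3, also high, weighed 1.84 and 0.861. Both alternatives thus leaned the comparison toward Kir2.1 arrays of high iron regulon against control arrays of low. The part of that state in these passes was not tested. With Kir2.1 replicate 2 alone left out PPZ2 did not pass (0.30, adjusted p = 0.189). Without the 3 arrays of high iron regulon the limma difference was 0.13 for PPZ2 (adjusted p = 0.737) and 0.071 for KHA1 (adjusted p = 0.836).

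SIS2 (YKR072C), the inhibitor gene, read -0.66, -0.53, -0.44 and -0.52 in the control arrays and -0.45, -0.37, -0.62 and -0.26 in the Kir2.1 arrays. Kir2.1 replicates 2 and 4 stood above all controls and replicates 1 and 3 within their range. The difference was 0.11 (SE 0.087, adjusted p = 0.711), or 1.08-fold with an interval from 0.942 to 1.24. It was 0.059 without Kir2.1 replicate 4, 0.071 without control replicate 1, and 0.18 without either Kir2.1 replicate 3 or the 3 arrays of high iron regulon.

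**Figure D3:**
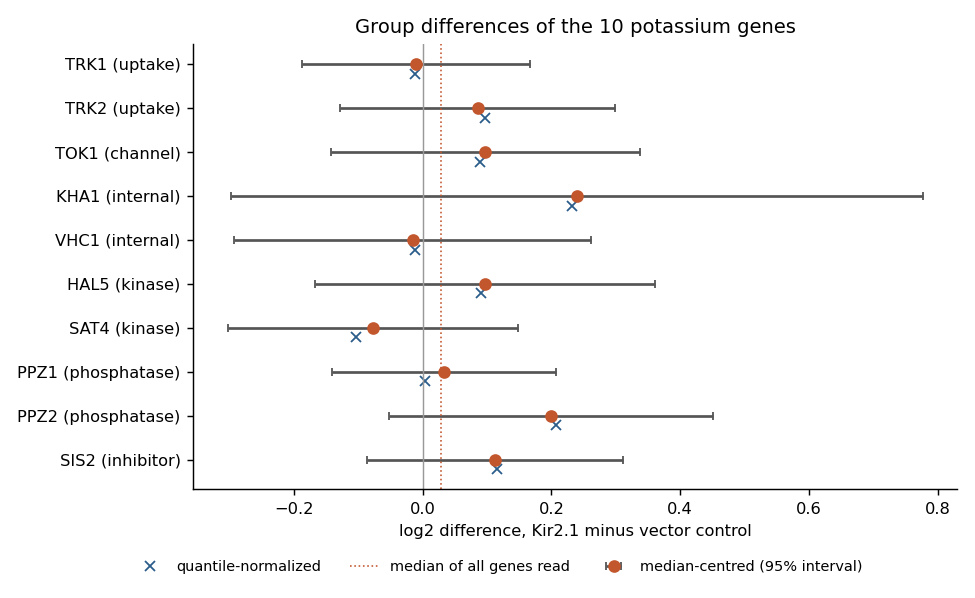
Circles give the difference of each of the 10 genes on the log2 scale, Kir2.1 minus vector control, with the 95% interval from limma, crosses give the same after quantile normalization, and the dotted line is the median of all genes. All 10 intervals hold 0, and that of KHA1 is the widest.

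Ratios between the related genes were then compared, because the centring of an array cancels in them. Each is given as its distance from its own mean over the 8 arrays, on the log2 scale. The ratio of TRK1 to TRK2 stood at 0.097, -0.034, 0.14 and -0.013 in the control arrays and at -0.21, -0.12, 0.090 and 0.052 in the Kir2.1 arrays. It was lowest in Kir2.1 replicates 1 and 2, and replicates 3 and 4 lay among the controls. The group difference was -0.096 (SE 0.083, exact permutation p = 0.314, two-sided).

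For PPZ1 to PPZ2 the control values were 0.0051, 0.0068, 0.27 and 0.050 and the Kir2.1 values -0.44, 0.19, -0.075 and -0.012. The Kir2.1 arrays ranged over 0.634 log2 units here, and the group difference was -0.17 (SE 0.15, exact permutation p = 0.314). HAL5 to SAT4 ranged still more widely, from -0.36 in Kir2.1 replicate 2 to 0.54 in Kir2.1 replicate 4. In the control arrays it stood at 0.20, -0.20, -0.17 and -0.18, and the group difference was 0.17 (SE 0.21, exact permutation p = 0.543). It was 0.022 without Kir2.1 replicate 4 and 0.32 without Kir2.1 replicate 2. PPZ1 to PPZ2 differed by -0.048 without Kir2.1 replicate 1, by -0.26 without replicate 2, by -0.10 without control replicate 3, and by -0.019 without the 3 arrays of high iron regulon. TRK1 to TRK2 differed by -0.042 without Kir2.1 replicate 1. Adjusted over the 3 ratios these p-values were 0.471, 0.471 and 0.543. The smallest exact p that 4 against 4 arrays allow is 0.0286.

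**Figure D4:**
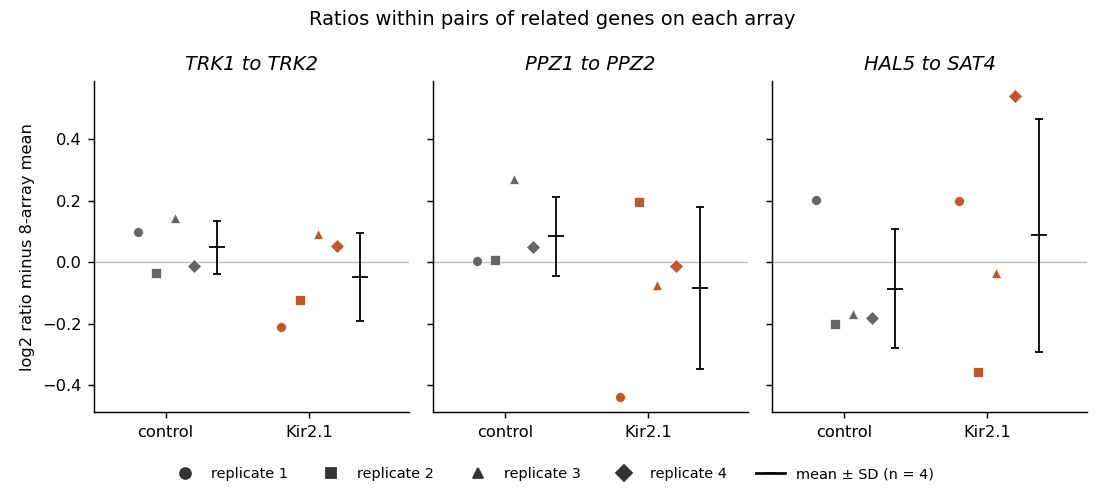
The log2 ratio of TRK1 to TRK2, of PPZ1 to PPZ2 and of HAL5 to SAT4 on each array is plotted as its distance from the 8-array mean, with the group mean and SD (n = 4) beside the points. The groups overlap in all 3 panels, and HAL5 to SAT4 differs most between arrays.

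The genes whose levels ran most closely with each potassium gene were sought by Pearson's r over the 8 arrays, among 4532 genes above background on all of them. KHA1 was most like GSC2 (r = 0.995), YHR175W-A (0.994) and YER158C (0.994). With it 354 genes (7.81%) reached an r above 0.9, and 483 an r below -0.9. PPZ2 was most like RCH1, JEN1 and AIM19 (0.988 to 0.989) and had 237 genes (5.23%) above 0.9 and 112 below -0.9. SAT4 was most like TRM7 (0.986), UTP15 (0.980) and FSF1 (0.980) and had 145 (3.20%) above 0.9 and 174 below -0.9. HAL5 ran with IVY1 (0.992), RAD52 (0.990) and PEX3 (0.985). SIS2 was closest to ARG4 (0.987), YBL111C (0.973) and SUA7 (0.967).

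Among the uptake and channel genes the closest were PHD1, TRE2 and PEP1 for TRK1 (0.964 to 0.966), YJU3, TRA1 and YBR137W for TRK2 (0.942 to 0.962), and IGO2, OM14 and OKP1 for TOK1 (0.948 to 0.959). For VHC1 they were HRD1, SDH6 and PUT1 (0.951 to 0.964). PPZ1 stood most alone: its closest genes were YHR033W (0.932), RGA1 (0.880) and GYL1 (0.876), and 1 gene exceeded an r of 0.9. The 8 points of such an r share arrays that fall into sets, as the KHA1 values show, so the r describes these arrays and carries no test. Leaving out the 2 arrays farthest from the PPZ1 median lowered its r with RGA1 to 0.467.

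Further genes of monovalent cation transport and its control did not pass either. Of 29 listed genes 27 were read, all except ENA1 and ENA2, which were not analysed here. In the limma test 0 of the 27 passed in either direction, with a smallest adjusted p of 0.551, while 2 were higher and 0 lower at an unadjusted p under 0.05, against 6.37% and 1.98% of all genes. After quantile normalization 0 were higher and 0 lower at that p. The mean was higher in the Kir2.1 arrays for 20 and lower for 7, against 3200 higher and 2249 lower of all genes. After quantile normalization these counts were again 20 and 7, against 2662 and 2787 of all genes. The median difference was 0.078, or 0.035 after quantile normalization. With array weights 7 of the 27 passed, against the 31.8% of all genes given above.

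Of the genes around the proton pump, PMP2 had the smallest p of that list before quantile normalization. PMP2, a small protein bound to the pump, read 3.26, 3.23, 3.23 and 3.33 in the control arrays and 3.46, 3.43, 3.57 and 3.37 in the Kir2.1 arrays. Its groups separated, the 1 gene of the 27 to do so where 5.05% of all genes did, but 0 of the 27 separated after quantile normalization, where 97 of all genes separated upward in place of 275. The difference was 0.19 (SE 0.061, adjusted p = 0.551), or 0.075 when quantile-normalized. PMA1, the plasma membrane proton pump, differed by 0.16 (SE 0.070, adjusted p = 0.605), a value that fell to 0.023 under quantile scaling. PMP1, a close relative of PMP2, differed by 0.17 (SE 0.086, adjusted p = 0.634), or 0.066 under that scaling. None of these 3 pump genes passed without array weights, and all 3 differences were over 1.5 times smaller with quantile scaling. With array weights PMP2 passed in limma (0.21, adjusted p = 0.0266), where 31.8% of all genes did, and PMA1 and PMP1 did not.

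CNB1, the regulatory subunit gene of calcineurin, a phosphatase that also acts on potassium and sodium transport, differed by 0.14 (SE 0.056, adjusted p = 0.586), and by 0.0072 with no centring. Its control values were 0.77, 0.82, 0.79 and 0.93 and its Kir2.1 values 1.01, 0.96, 0.96 and 0.93, so the groups met at the ends of their ranges. The calcineurin target factor gene CRZ1 differed by 0.085 (SE 0.10), which did not pass. The Ppz inhibitor relatives VHS3 and CAB3 and the inhibitor YPI1 had differences of 0.078, 0.12 and 0.11. None of the 3 passed with all 8 arrays weighted equally. With limma's array weights VHS3 (adjusted p = 0.0495) and YPI1 (0.0420) passed, where 31.8% of all genes did, and CAB3 did not. VHS3 lay above background on only 6 of the 8 arrays and CAB3 on only 4, so a change in either may be understated. The sodium pump gene ENA5, which belongs to a set of near-identical tandem copies and may read them jointly, differed by 0.068 (SE 0.057), and the sodium-proton exchanger gene NHA1 by 0.034 (SE 0.077).

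HAL1, a gene known for salt tolerance, and MDM38 and YLH47, mitochondrial genes linked to potassium-proton exchange, are named after their values were seen. They were among the widest differences of the list, at 0.40 (SE 0.21, adjusted p = 0.673) for HAL1, -0.21 (SE 0.18, adjusted p = 0.735) for MDM38 and -0.19 (SE 0.12, adjusted p = 0.707) for YLH47. NHX1 and VNX1, listed with MDM38 and YLH47 as organelle exchange genes, went the other way, at 0.16 (SE 0.14) and 0.074 (SE 0.099). With limma's array weights HAL1 (adjusted p = 0.0192), MDM38 (0.0193) and YLH47 (0.0221) passed, where 31.8% of all genes did. With these weights NHX1 passed too, in the higher direction (0.36, adjusted p = 0.0221), and VNX1 did not.

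**Figure D5:**
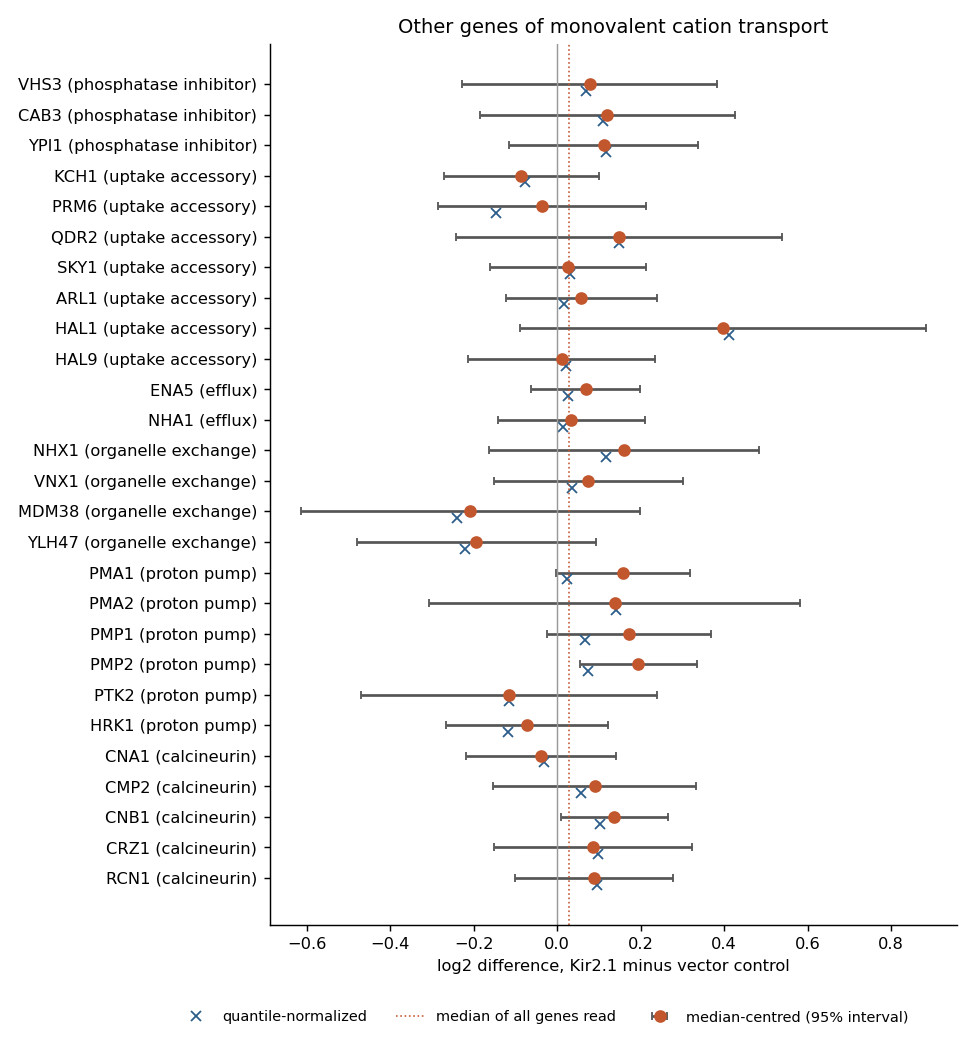
Differences of 27 further genes of monovalent cation transport are drawn on the log2 scale, Kir2.1 minus vector control, as circles with 95% limma intervals, beside the quantile-normalized value as a cross. Of the intervals 25 hold 0, all except those of PMP2 and CNB1, and for PMA1, PMP1 and PMP2 the cross lies well to the left of the circle.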

How the data were processed

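The authors deposited 1 score for each of 10715 probe sets on each array, standardized so that every array has a mean of 0 and an SD of 1. Per the labels' protocols, biotin-labelled cRNA was made from column-cleaned total RNA with a 3' kit. How probes were summarized and background removed is not stated in the labels. Precision is limited by the number of arrays. The planned log2 test needed a log scale: zero was set 0.005 array SD below the lowest score of each array, log2 taken, and each array centred on its median gene. Symbols came from the platform annotation, updated through RefSeq identifiers (R64): 5498 probe sets had 1 S. cerevisiae gene, 1746 an S. pombe gene, 1 several genes and 3470 no entry. The brightest probe set stood for a gene.

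The test was limma 3.58.1 under R 4.3.3, a moderated two-sided comparison of the groups with no other term, over all 5449 genes. A gene passed when its p, adjusted by Benjamini-Hochberg, was under 0.05. The script was tested on simulated data. Replicates are described as biological in the series' design text. Members, lists and alternatives were chosen with earlier results of these data known. Named are all 10 members, of the further cation list the 4 with the smallest p plus PMA1, itself among those 4, and ENA1, not analysed here, and the 3 genes most like each member. Other list members are named to show their roles and were chosen after their values were seen. The 21 alternatives on the log2 scale and 1 on the score are in the closing section.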

Additional observations from a re-analysis of the deposited data

How the results depend on the processing

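Scaling set the sign of several differences. With no centring TRK2 (-0.044), TOK1 (-0.032), HAL5 (-0.033), PPZ1 (-0.096) and SIS2 (-0.017) turned lower, PPZ2 was 0.071, KHA1 0.11 and SAT4 -0.21; PPZ1 turned too when centred on the 75th percentile (-0.011) or taken on the deposited score (-0.025). Array weights turned TRK1 (0.090), VHC1 (0.13) and PPZ1 (-0.022), and called 1017 genes higher and 718 lower, with 2 potassium genes and 7 of the further cation genes. When vector control replicate 1 was dropped together with Kir2.1 replicate 2, 326 genes were called higher and 182 lower, with 1 gene of each list, and TRK1 (0.071) and VHC1 (0.13) turned higher. Without the 3 arrays of high iron regulon TRK2 turned (-0.015). On the score itself 1 gene was called lower. Over the omissions of 1 array TRK1 ran from -0.055 to 0.037, VHC1 from -0.082 to 0.090, HAL5 from -0.0080 to 0.16, PPZ1 from -0.014 to 0.088, TRK2 from 0.0057 to 0.14, TOK1 from 0.032 to 0.17, KHA1 from 0.11 to 0.41, PPZ2 from 0.14 to 0.30, SIS2 from 0.059 to 0.18 and SAT4 from -0.16 to -0.030. The ratios ran from -0.14 to -0.042 (TRK1 to TRK2), -0.26 to -0.048 (PPZ1 to PPZ2) and 0.022 to 0.32 (HAL5 to SAT4). The causes were not tested. KHA1, PPZ2 and SAT4 kept their sign in all 21 alternatives on the log2 scale, as no other potassium gene did. The replicate block called 0 genes in limma (smallest adjusted p = 0.511), and the numbers were not taken as pairs. Deviations of same-numbered arrays correlated at 0.81, 0.69 and 0.39 for replicates 1, 2 and 4 but at -0.66 for replicate 3. Between unlike-numbered arrays the range was as wide. Vector control replicate 1 correlated at -0.87 with Kir2.1 replicate 2 and at 0.81 with Kir2.1 replicate 3. Dim genes limit what can be seen: a change in VHC1, TRK2 or PPZ2 may be understated.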
